A study of Mus musculus with 14 samples.

Results

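The antioxidant enzymes described here are 10 genes whose products remove superoxide, hydrogen peroxide, lipid peroxides and related toxic molecules: Sod1, Sod2, Cat, Gpx1, Gpx3, Gpx4, Prdx1, Prdx2, Hmox1 and Nqo1. They are a list of names, fixed with earlier results of these data known, and were read on each probe set that carries 1 of these symbols and no other. The rule found 9 of the 10 genes, on 15 of the 22626 probe sets of the array that are no control, out of 12393 genes with a symbol of their own. The 5 probe sets of Prdx1 also carry the symbol of the predicted gene Gm21399, so Prdx1 was not analysed here.

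RNA came from hematopoietic stem cells (HSC) or whole bone marrow (WBM) of male C57Bl/6 mice and was hybridized to Affymetrix arrays in 7 groups of 2 arrays, called A and B. HSC of wild-type (WT) mice were taken at 2, 6, 12 and 21 mo. At 12 mo, HSC were also taken from p53+/m mice, which carry a truncated p53 allele (m) with raised p53 activity, and from p53+/- mice, which have 1 working copy of p53. Both are compared with each other and with WT HSC of 12 mo, and WT HSC of 2 mo are compared with WT WBM of 2 mo. The study states that the mice of its p53 experiments had been back-crossed onto C57Bl/6. Differences in background that remain cannot be told apart from genotype. HSC were sorted as side population cells, which pump out the dye Hoechst, that carried c-Kit and Sca-1 and no lineage marker. Each HSC array held RNA from a pool of 2 to 5 mice, no pool is stated for WBM, and the labels give 2 rounds of in vitro transcription for all samples. One label field states 2 mo as the age throughout, and the ages used here are those of the sample titles and the treatment field. Nothing states how the arrays of a group relate to each other, so p-values measure only the spread between these arrays, which may be technical.

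Superoxide, which leaks from mitochondria and is made on purpose by the NADPH oxidase of phagocytes, is turned into hydrogen peroxide by superoxide dismutases. Catalase, glutathione peroxidases and peroxiredoxins then turn the peroxide into water, the last 2 families at the cost of glutathione or thioredoxin, which NADPH renews. Hematopoietic stem cells are known to be sensitive to reactive oxygen, and the marrow around them holds red cell precursors and granulocytes, which carry large amounts of several of these enzymes. Many antioxidant genes are switched on by the transcription factor Nrf2 through the antioxidant response element.

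The DNA upstream of 4 of these genes is shown because 3 of them, Cat, Gpx1 and Prdx2, had the largest differences between HSC and WBM among the genes measured, and because Sod1 holds a match to the core of the antioxidant response element. The sequences are RefSeq promoters of the mouse build GRCm38.p6, given 5′ to 3′ on the strand of the gene, each of 250 bases that end just before the transcription start. Capitals mark matches, on either strand, to CCAAT and GGGCGG, the cores of the CCAAT box and the GC box. The Cat sequence lies at chr2:103485154-103485403 on the minus strand, the Gpx1 sequence at chr9:108338830-108339079 on the plus strand and the Prdx2 sequence at chr8:84969372-84969621 on the plus strand.
Cat: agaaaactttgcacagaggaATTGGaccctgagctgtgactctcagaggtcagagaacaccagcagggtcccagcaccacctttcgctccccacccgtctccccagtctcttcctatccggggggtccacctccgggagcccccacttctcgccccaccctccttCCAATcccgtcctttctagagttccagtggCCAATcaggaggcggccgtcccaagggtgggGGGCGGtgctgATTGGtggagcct
Gpx1: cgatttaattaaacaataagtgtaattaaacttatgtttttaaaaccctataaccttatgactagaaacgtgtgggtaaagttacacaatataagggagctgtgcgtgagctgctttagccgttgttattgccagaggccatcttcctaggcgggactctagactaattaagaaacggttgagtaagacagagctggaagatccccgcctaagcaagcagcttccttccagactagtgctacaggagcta
Prdx2: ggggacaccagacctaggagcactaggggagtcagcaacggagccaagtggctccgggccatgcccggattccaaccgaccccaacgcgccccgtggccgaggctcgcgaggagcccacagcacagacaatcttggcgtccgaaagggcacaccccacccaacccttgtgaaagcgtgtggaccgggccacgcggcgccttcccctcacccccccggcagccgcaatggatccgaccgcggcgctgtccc
The Cat sequence holds CCAAT at 4 positions, which begin 230, 85, 55 and 13 bases before the start, and GGGCGG once, 24 bases before it. The Gpx1 and Prdx2 sequences hold neither motif, although their share of G and C differs widely, at 42.0% for Gpx1 and 69.2% for Prdx2. Of all 32851 mouse promoters in the same table, read over the same length, 33.8% hold CCAAT and 32.7% hold GGGCGG, the motifs overlapping nowhere in Cat. The core of the antioxidant response element, TGACNNNGC, is held by 10.2% of all promoters. Of the 10 genes, 9 have a promoter in the table, 12 promoters in all. Within the 250 bases read, 2 of these hold the core, those of Sod1 and Prdx1. Sequence farther upstream was not searched. Around the match in Sod1, at chr16:90220696-90220724 on the plus strand, the sequence reads as follows, with the match, which runs on the opposite strand and begins 56 bases before the start, in capitals.
Sod1: gccaaggtggGCGTGGTCAgactcaggcc

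The labelled cells were checked on marker genes before the enzymes were compared. Of 13 HSC markers, 10 to 12 reached log2 5 on each HSC array, and 8 on each WBM array. By the threshold given below, 7 of the 13 were higher in HSC than in WBM at 2 mo and 0 lower. Of all probe sets, 11% were higher and 9.69% lower. Kit, Slamf1, Mecom, Abcg2, Tal1 and Vwf did not pass, with log2 differences of -1.40 for Abcg2 and 2.59 for Vwf. Of 11 erythroid markers, 2, the carbonic anhydrase gene Car2 and the transferrin receptor gene Tfrc, reached that level on the HSC arrays, against 10 on the WBM arrays, and Alas2, which starts heme synthesis in red cells, read 1.45 to 1.48 on the HSC arrays against 13.67 on both WBM arrays. The summed level of 13 neutrophil markers, on the log2 scale, lay between 8.70 and 12.18 on the HSC arrays, highest on 21 mo A, against 17.39 and 17.47 on the WBM arrays. The control probe set for the 5′ part of 18S ribosomal RNA was uneven among the HSC arrays, with 10.91 and 10.88 at 2 mo, 11.19 and 8.28 at 6 mo, 4.66 and 9.68 at 12 mo, and 4.84 and 5.44 at 21 mo, and it read 5.32 and 5.14 in WBM. The part of this signal in the results was not tested.

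All levels are GC-RMA values on the log2 scale, in which 1 unit is a 2-fold difference. A probe set is said to be higher or lower, to rise or to fall, when limma gave a Benjamini-Hochberg adjusted p under 0.05 over all 22626 probe sets and the difference was at least 2-fold. In counts of probe sets whose arrays did not overlap, higher and lower give only the order of the arrays. Levels of different probe sets cannot be set against each other, and 4 of the 15 probe sets never reached log2 5 on 2 arrays: those of Gpx3, Nqo1 and Hmox1 and 1 of 3 probe sets of Sod2.

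The first comparison asks how the enzymes of HSC differ from those of the mixed cells of the marrow at the same age. HSC of 2 mo had lower levels than WBM of catalase, the glutathione peroxidase Gpx1 and the peroxiredoxin Prdx2, by 4.29-fold to 8.33-fold, and a higher level of the lipid peroxidase Gpx4 on 1 of its 2 probe sets. The mitochondrial dismutase Sod2 did not pass the test, and the 2 probe sets of the cytosolic dismutase Sod1 differed in direction. Of the 15 probe sets, 6 passed, 1 higher and 5 lower, for 5 genes, against a background of 20.7% of all probe sets (11% higher and 9.69% lower). In a bulk sample, a lower share of the cells that carry an RNA and less of that RNA per cell cannot be told apart.

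**Figure D1:**
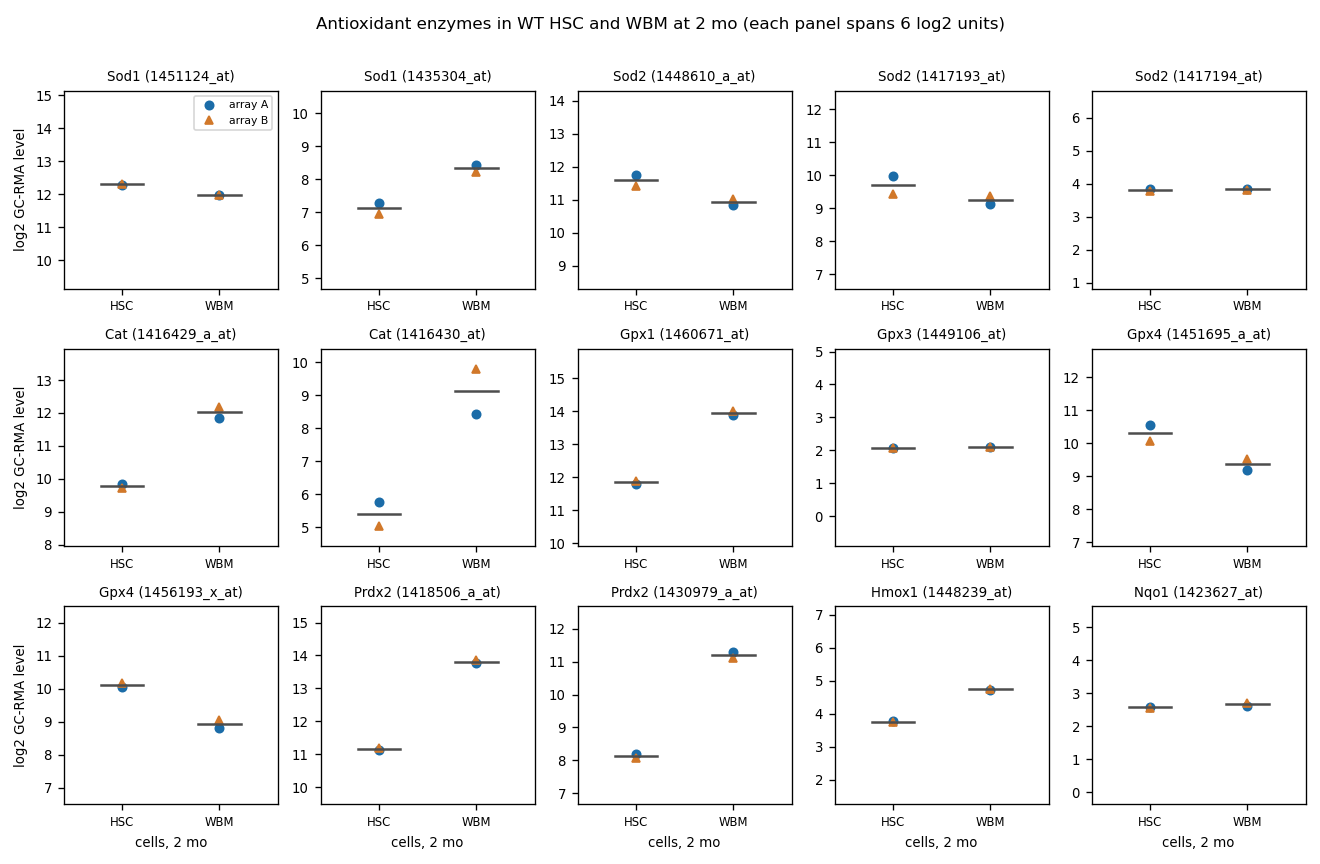
Log2 GC-RMA level (y axis) of the 15 probe sets of 9 antioxidant enzyme genes in HSC and in WBM of WT mice of 2 mo (x axis), with a circle for array A, a triangle for array B and a bar for the mean of both. Every panel spans 6 log2 units at its own level. The HSC arrays of Cat, Gpx1 and Prdx2 lie clearly below those of WBM, while on both probe sets of Gpx4 they lie above.

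Cat encodes catalase, which splits hydrogen peroxide in peroxisomes without any cofactor that must be renewed. Its brighter probe set, 1416429_a_at, read 9.84 and 9.72 in HSC, against 11.84 and 12.19 in WBM. The groups lay far apart, and the log2 difference was -2.24 (SE 0.14, adjusted p = 0.000152), or 4.73-fold lower in HSC. The second Cat probe set, 1416430_at, read 5.75 and 5.03 in HSC, against 8.44 and 9.80 in WBM. Here too every HSC array lay under both WBM arrays, but the arrays of a group were spread widely, and a log2 difference of -3.73 (SE 1.12) had an adjusted p of 0.0631 and did not pass.

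Gpx1, the cytosolic glutathione peroxidase that is abundant in red cells, read 11.80 and 11.89 in HSC, against 13.889 and 13.999 in WBM. The arrays of each group nearly coincided, and the log2 difference was -2.10 (SE 0.28, adjusted p = 0.00335). Gpx4, which reduces lipid peroxides within membranes, went the other way. On probe set 1456193_x_at it read 10.05 and 10.19 in HSC, against 8.81 and 9.04 in WBM, and the log2 difference was 1.19 (SE 0.28, adjusted p = 0.0285). On probe set 1451695_a_at it read 10.55 and 10.07 in HSC, against 9.20 and 9.54 in WBM, and the log2 difference of 0.94 (SE 0.39, adjusted p = 0.158) did not pass. The HSC arrays lay above the WBM arrays on both probe sets. The Gpx4 call was lost without either HSC array of 2 mo and without either WBM array, with log2 differences of 1.08 to 1.31 over all single arrays left out. Gpx3, a secreted peroxidase of plasma, read 2.07 and 2.06 in HSC and 2.11 and 2.10 in WBM, which is near the floor of the array.

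Prdx2, a peroxiredoxin that is among the most abundant proteins of red cells, had the largest differences that passed. On 1418506_a_at it read 11.12 and 11.19 in HSC, against 13.78 and 13.86 in WBM, which puts it -2.66 log2 units apart (SE 0.40, adjusted p = 0.0053). On 1430979_a_at it read 8.20 and 8.06 in HSC, against 11.28 and 11.11 in WBM, for a difference of -3.06 log2 units (SE 0.39, adjusted p = 0.00278). Both probe sets therefore placed Prdx2 lower in HSC, by 6.33-fold and 8.33-fold. Cat, Gpx1 and Prdx2 were lower beside 10 of 11 erythroid markers, 13 of 13 neutrophil markers, 9 of 14 monocyte and macrophage markers and 6 of 9 B lineage markers that were also lower in HSC. Cd14 of the monocyte and macrophage list was higher in HSC (log2 difference 6.06). Among 7 megakaryocyte and platelet markers, 1 was lower. Of all probe sets, 9.69% were lower. The part of these cell types in the difference was not tested.

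Sod1 encodes the copper and zinc dismutase of the cytosol, and Sod2 the manganese dismutase of mitochondria. On the dimmer Sod1 probe set, 1435304_at, the level was 7.29 and 6.95 in HSC, against 8.43 and 8.24 in WBM, and the log2 difference was -1.21 (SE 0.16, adjusted p = 0.00355). On the brighter one, 1451124_at, it was 12.28 and 12.32 in HSC, against 11.97 and 11.96 in WBM, and the log2 difference was 0.33 (SE 0.25, adjusted p = 0.502). The 2 probe sets thus gave opposite orders of HSC and WBM, and no direction is given for Sod1 as a gene. Sod2 on its brightest probe set, 1448610_a_at, read 11.76 and 11.41 in HSC, against 10.85 and 11.03 in WBM, and its log2 difference of 0.64 (SE 0.20, adjusted p = 0.0689) did not pass. The second Sod2 probe set, 1417193_at, had a log2 difference of 0.44, and the third, 1417194_at, stayed between 3.79 and 3.85 on these 4 arrays.

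Hmox1 and Nqo1 are classical Nrf2 targets: Hmox1 breaks down heme, and Nqo1 reduces quinones. Hmox1 read 3.77 and 3.74 in HSC, against 4.72 and 4.76 in WBM, all below log2 5. Its log2 difference of -0.98 (SE 0.25, adjusted p = 0.0352) was just under 2-fold. Nqo1 read 2.59 and 2.56 in HSC and 2.62 and 2.71 in WBM, with no level that stood clear of the floor. Over the 15 probe sets, the arrays of HSC and WBM did not overlap on 14 (5 higher and 9 lower in HSC), beside 66.1% of all probe sets (29.1% higher and 37% lower), and the median log2 difference was -0.09, beside -0.02 over all.

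The genes that supply and surround these enzymes were read on 5 lists. Beside them, 20.7% of all probe sets passed in this comparison, 11% higher and 9.69% lower. With the brightest probe set of each gene alone, 3037 of 12393 genes passed. None of the 10 measured genes of NADPH supply was higher in HSC and 5 were lower, with a list median of -1.20 in log2 difference, beside -0.01 over all genes. They were Idh1 (-2.11), Tkt (-1.85), Pgd (-1.82), Taldo1 (-1.68) and Me2 (-1.61), of which Pgd, Taldo1 and Tkt belong to the pentose phosphate pathway, and Idh1 is a cytosolic and Me2 a mitochondrial dehydrogenase. Of 7 genes of the NADPH oxidase, the superoxide source of phagocytes, none was higher and 5 were lower, with a list median of -2.32. The largest differences there were those of Ncf4 (-5.27), Cybb (-3.96), Ncf1 (-3.30) and Rac2 (-2.32). Cybb, which encodes the catalytic subunit, averaged 2.02 in HSC, against 5.98 in WBM. The fifth gene was Cyba (-1.30), the partner of Cybb in the membrane. Ncf4, Cybb and Ncf1 averaged below log2 5 in HSC, so the sizes of their differences are limited by the floor of the array. These lists, too, moved beside the neutrophil markers and most of the monocyte markers, and the part of those cells was not tested.

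Of 28 genes of the glutathione and thioredoxin systems, 6 were higher and 9 lower, and the list median was 0.05. The highest were Txnrd3, a thioredoxin reductase (4.62), Gsta4, a glutathione transferase for lipid aldehydes (3.86), Msrb2, a mitochondrial methionine sulfoxide reductase (2.71), and Sesn3, a sestrin (2.03). Txnrd3 averaged 7.43 in HSC, against 2.81 in WBM. The lowest were Gsr, the glutathione reductase that renews glutathione with NADPH (-6.79), Msrb1 (-5.50), the microsomal transferase gene Mgst1 (-3.30) and the glutaredoxin gene Glrx (-2.60). Gsr averaged 4.71 in HSC, against 11.49 in WBM. Levels were below log2 5 for Txnrd3, Gsta4 and Msrb2 in WBM and for Gsr and Msrb1 in HSC, where the floor of the array limits the size of a difference.

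Of 15 genes of Nrf2 regulation, heme and iron, 3 were higher in HSC and 6 lower, with a list median of -1.21. The 3 were Maff, a small Maf protein (3.73), the Nrf2 relative Nfe2l1 (1.99) and Sqstm1, an autophagy receptor that binds Keap1 (1.51). The lowest were the iron exporter gene Slc40a1 (-5.75), the biliverdin reductase gene Blvrb (-5.28), the repressor gene Bach2 (-4.71) and Tfrc (-4.69). Maff in WBM and Blvrb in HSC averaged below log2 5. Nfe2l2, which encodes Nrf2 itself, averaged 10.67 in HSC and 11.71 in WBM and did not pass (-1.04, adjusted p = 0.0863). Of 11 relatives of the enzymes, 2 were higher and 2 lower: Hmox2, the constitutive heme oxygenase (1.40), and Ccs, the copper chaperone of Sod1 (1.35), against the mitochondrial peroxiredoxin gene Prdx3 (-2.08) and Nqo2 (-1.97), which averaged below log2 5 in both.

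**Figure D2:**
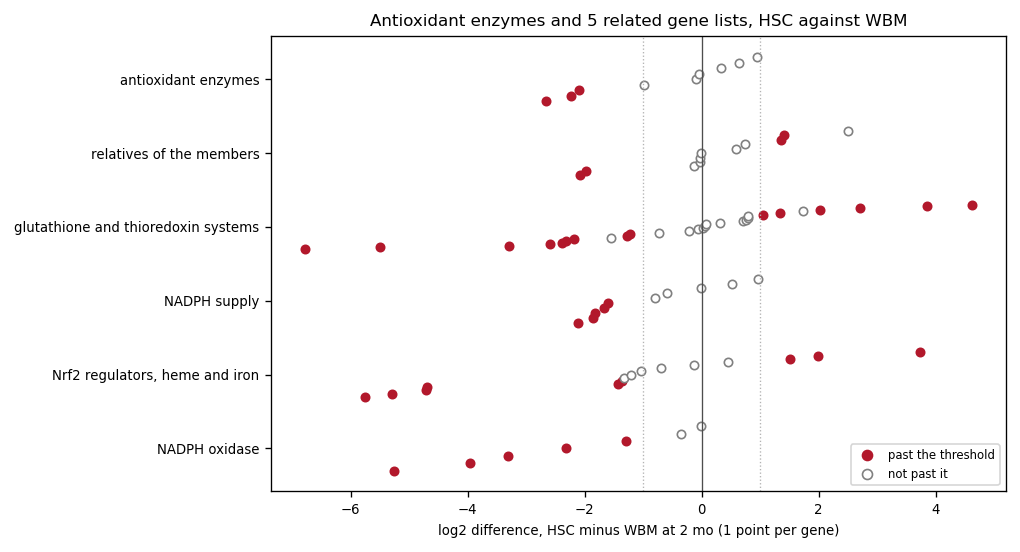
Log2 difference, HSC minus WBM at 2 mo (x axis), for the 9 antioxidant enzyme genes, each on the probe set that is brightest in WT HSC, and for the measured genes of 5 related lists (rows). Each point is 1 gene, filled where it passed the threshold, dotted lines mark a 2-fold difference, and the NADPH supply and NADPH oxidase rows hold filled points to the left of 0 only, 5 in each.

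The second comparison asks which enzymes changed in WT HSC between 2 and 21 mo. None of the 15 probe sets rose or fell, against 2.83% of all probe sets, and the arrays of the youngest and the oldest mice overlapped for catalase and Sod2 on each of their probe sets. At an unadjusted p under 0.05 and 2-fold, 2 of 15 were counted, against 13.2% of all probe sets. Both were Gpx4, with the arrays of 21 mo below those of 2 mo. The test for any course over the 4 ages also called none, against 0.535%, with the same 2 Gpx4 probe sets at an unadjusted p under 0.05 and 2-fold, against 10.4%.

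**Figure D3:**
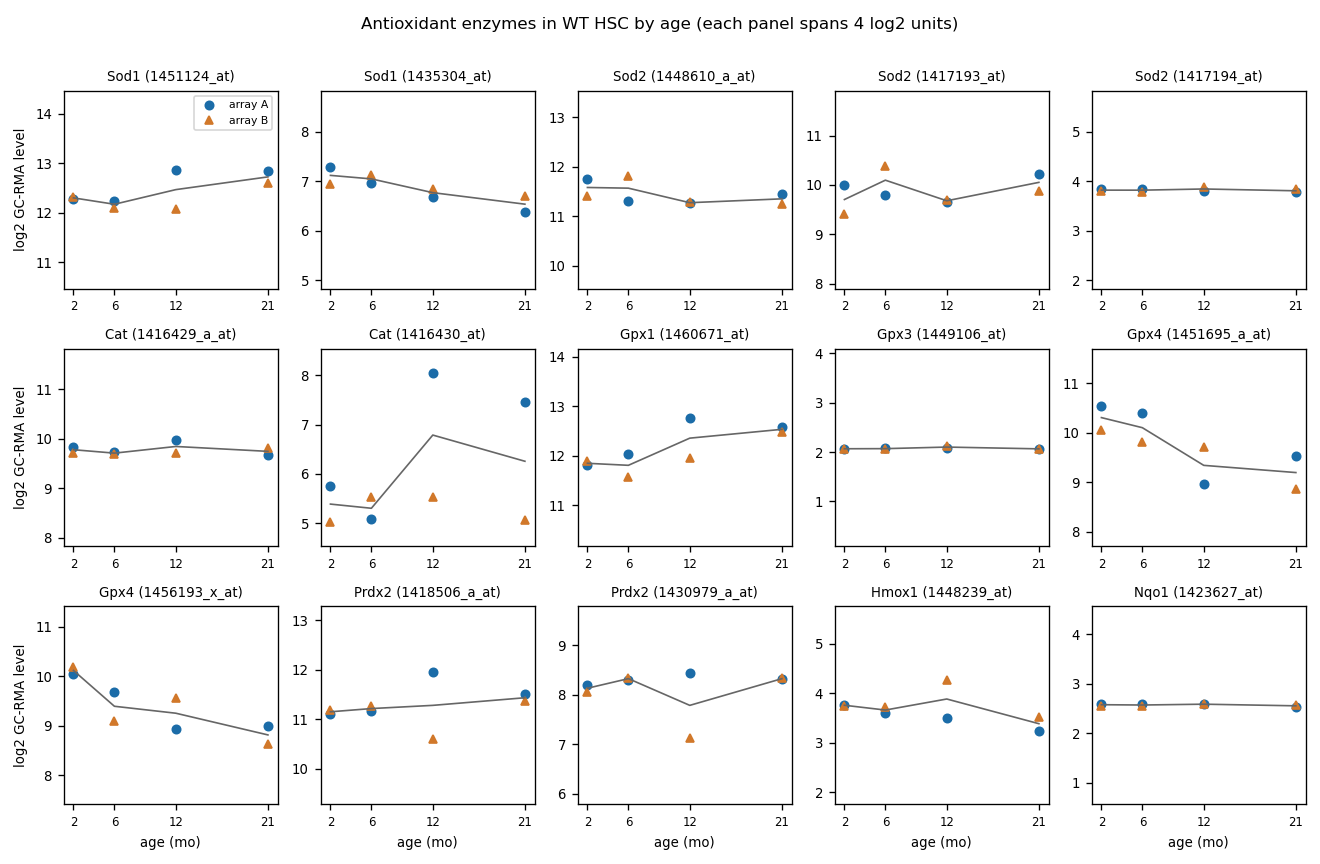
Log2 GC-RMA level (y axis) of the 15 probe sets against age in mo (x axis, 2, 6, 12 and 21) in WT HSC, with a circle for array A, a triangle for array B and a line through the means. Every panel spans 4 log2 units at its own level; both probe sets of Gpx4 slope down, while array 12 mo A stands apart from 12 mo B on Prdx2, Gpx1, Sod1 (1451124_at) and Cat (1416430_at).

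Gpx4 on 1456193_x_at read 10.05 and 10.19 at 2 mo, 9.68 and 9.11 at 6 mo, 8.94 and 9.57 at 12 mo, and 8.99 and 8.64 at 21 mo. The 2 mo arrays were the highest of all and those of 21 mo lay below them by a trend difference of -1.18 (SE 0.30, adjusted p = 0.0915). Probe set 1451695_a_at read 10.55 and 10.07 at 2 mo, 10.40 and 9.82 at 6 mo, 8.97 and 9.72 at 12 mo, and 9.54 and 8.86 at 21 mo. Both arrays of 21 mo again lay below both of 2 mo, with a trend difference of -1.21 (SE 0.37, adjusted p = 0.136). When probe sets below log2 5 were left out, 1456193_x_at passed, as 1 of 11 measured enzyme probe sets. Beside it, 2065 of the 10417 probe sets kept passed. Over all single arrays left out, the difference on 1456193_x_at ranged between -1.32 and -0.99, and its smallest adjusted p over all alternatives was 0.0301.

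Gpx1 read 11.80 and 11.89 at 2 mo, 12.04 and 11.57 at 6 mo, 12.76 and 11.95 at 12 mo, and 12.58 and 12.48 at 21 mo. The 21 mo arrays lay above those of 2 mo, but the trend difference of 0.79 (SE 0.29, adjusted p = 0.196) did not pass and was under 2-fold. All 8 values remained below the 13.889 and 13.999 of WBM.

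The probe sets of Sod1 parted with age as they did between HSC and WBM. On 1435304_at the levels were 7.29 and 6.95 at 2 mo, 6.97 and 7.13 at 6 mo, 6.69 and 6.85 at 12 mo, and 6.38 and 6.70 at 21 mo, with a trend difference of -0.61 (SE 0.15, adjusted p = 0.0871). On 1451124_at they were 12.28 and 12.32 at 2 mo, 12.24 and 12.10 at 6 mo, 12.87 and 12.07 at 12 mo, and 12.84 and 12.60 at 21 mo, with a trend difference of 0.49 (SE 0.25, adjusted p = 0.347). Neither passed. Sod2 on 1448610_a_at read 11.76 and 11.41 at 2 mo, 11.32 and 11.82 at 6 mo, 11.27 and 11.28 at 12 mo, and 11.45 and 11.26 at 21 mo. Its arrays overlapped between the youngest and the oldest mice, with a trend difference of -0.29 (SE 0.19, adjusted p = 0.5).

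Catalase was the steadiest of the bright enzymes on 1416429_a_at, with all 8 values between 9.68 and 9.96 and a trend difference of 0.01 (SE 0.10, adjusted p = 0.961). Its second probe set was the least steady of all 15. Probe set 1416430_at read 5.75 and 5.03 at 2 mo, 5.09 and 5.53 at 6 mo, 8.04 and 5.53 at 12 mo, and 7.45 and 5.07 at 21 mo. Arrays 12 mo A and 21 mo A stood 2.51 and 2.38 above their partners, and the trend difference of 1.19 had an SE of 1.06 (adjusted p = 0.644). The 5′ 18S signal was low on 12 mo A and on both arrays of 21 mo. The summed level of the 11 erythroid markers was 12.52 on 12 mo A and 11.91 on 12 mo B, and 12.66 on 21 mo A and 12.29 on 21 mo B. Car2 and Tfrc, the markers of that list above log2 5, were higher on both A arrays, while Alas2 lay between 1.46 and 1.48 on all 4. The summed neutrophil markers gave 10.22 on 12 mo A and 11.09 on 12 mo B, and 12.18 on 21 mo A and 10.96 on 21 mo B. The part of the 18S signal and of such cells was not tested.

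Prdx2 read 11.12 and 11.19 at 2 mo, 11.18 and 11.26 at 6 mo, 11.96 and 10.61 at 12 mo, and 11.51 and 11.37 at 21 mo on 1418506_a_at. Apart from the 12 mo arrays, which differed by 1.35 on this probe set and by 1.31 on the other, the values lay close together. The trend difference was 0.28 (SE 0.38, adjusted p = 0.777). Hmox1 stayed between 3.24 and 4.27, Nqo1 between 2.53 and 2.59 and Gpx3 between 2.06 and 2.12, with the highest value of Hmox1 on 12 mo B. Of the 15 trend differences 8 were positive and 7 negative, with a median of 0.01, beside -0.02 over all probe sets. The arrays of 21 and 2 mo did not overlap on 8 of 15, 4 higher and 4 lower at 21 mo, beside 68.9% of all (20.9% higher and 48% lower).

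Among the related lists, 1 gene passed with age, beside 2.83% of all probe sets. Cyba, the p22phox subunit of the NADPH oxidase, fell, with 8.71 at 21 mo against 10.18 at 2 mo and a trend difference of -1.59 (SE 0.27, adjusted p = 0.0423). Ccs, the copper chaperone of Sod1 (-0.88, adjusted p = 0.0402), and Txnrd3 (-0.98, adjusted p = 0.041) had an adjusted p under 0.05 and less than 2-fold. Next to them by p in their lists stood the gastrointestinal glutathione peroxidase gene Gpx2 (-2.63, adjusted p = 0.113) and the sulfiredoxin gene Srxn1 (1.05, adjusted p = 0.0787). The largest trend difference of these lists that missed the threshold was that of Gsr, which averaged 7.86 at 21 mo and 4.71 at 2 mo (3.28, SE 0.77, adjusted p = 0.08), and it is named here after its value was seen. Of the Nrf2, heme and iron list, the smallest p belonged to Nfe2l1 (-0.85, adjusted p = 0.0659) and Bach1 (1.32, adjusted p = 0.0682), a repressor of heme oxygenase genes. Nfe2l2 itself averaged 12.33 at 21 mo and 10.67 at 2 mo (1.57, adjusted p = 0.069), again named after its value was seen. For NADPH supply the smallest p belonged to Taldo1 (-1.48, adjusted p = 0.146) and Pgls (-1.23, adjusted p = 0.205), both of the pentose phosphate pathway. In the same fit, 2 of 13 neutrophil markers, 3 of 14 monocyte and macrophage markers and 1 of 13 HSC markers rose and 1 of 9 B lineage markers fell. Of all probe sets, 1.32% rose and 1.51% fell. The part of such cells in the levels of HSC was not tested.

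The third set of comparisons asks how the enzymes of 12-mo-old HSC differ with the dose and activity of p53. No probe set of the antioxidant enzymes passed in any of the 3 comparisons, against a background of 0.194% between p53+/m and p53+/- HSC, 0.446% between p53+/m and WT HSC and 0.164% between p53+/- and WT HSC. Catalase came closest. Its levels in p53+/m HSC were the lowest of all 12 HSC arrays on both probe sets, and the comparisons with p53+/- and with WT share the p53+/m arrays.

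**Figure D4:**
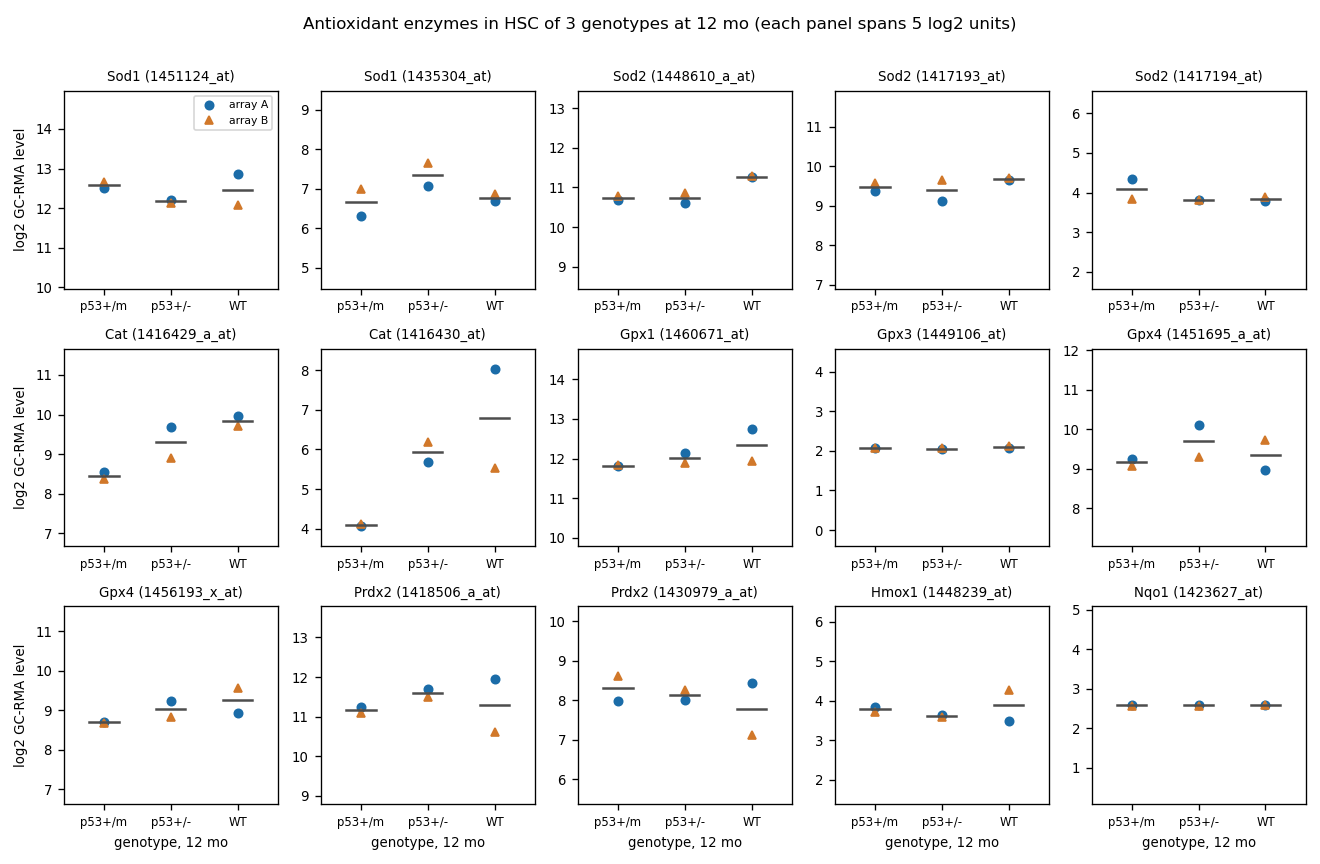
Log2 GC-RMA level (y axis) of the 15 probe sets in HSC of p53+/m, p53+/- and WT mice of 12 mo (x axis), with a circle for array A, a triangle for array B and a bar for the mean of both. Every panel spans 5 log2 units at its own level. Both p53+/m arrays stand lowest on both Cat probe sets, and the Sod2 (1448610_a_at) arrays of both p53 genotypes lie below those of WT, without a call.

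On 1416429_a_at, Cat read 8.55 and 8.37 in p53+/m HSC, 9.68 and 8.91 in p53+/- HSC, and 9.96 and 9.72 in WT HSC. The groups did not overlap in any pair. The log2 difference was -0.84 between p53+/m and p53+/- HSC (SE 0.23, adjusted p = 0.253). Between p53+/m and WT HSC it was -1.38 (SE 0.23, adjusted p = 0.0658), a 2.61-fold difference that did not pass. Between p53+/- and WT HSC it was -0.55 (SE 0.23, adjusted p = 0.612). The difference between p53+/m and WT HSC passed in a fit of all 14 arrays (adjusted p = 0.0396). That fit called 184 of all 22626 probe sets. With only the 4 arrays of the groups compared, no probe set of the array passed. Over all single arrays left out, the log2 difference was -1.51 to -1.26. Without p53+/- B, the log2 difference between p53+/m and p53+/- HSC was -1.22.

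On 1416430_at, Cat read 4.06 and 4.12 in p53+/m HSC, 5.69 and 6.19 in p53+/- HSC, and 8.04 and 5.53 in WT HSC. The p53+/m arrays again lay below all others, and below log2 5, while the WT arrays were 2.51 apart. The log2 difference was -1.85 between p53+/m and p53+/- HSC (SE 0.97, adjusted p = 0.691), -2.70 between p53+/m and WT HSC (SE 0.97, adjusted p = 0.361) and -0.85 between p53+/- and WT HSC (SE 0.97, adjusted p = 0.993). The 2 Cat probe sets were those counted between p53+/m and WT HSC at an unadjusted p under 0.05 and 2-fold, against 4.17% of all probe sets, and in the comparisons of p53+/m with p53+/- and of p53+/- with WT none was, against 3.47% and 2.97%. The 5′ 18S signal was 5.71 and 7.18 in p53+/m HSC, 8.92 and 7.96 in p53+/- HSC and 4.66 and 9.68 in WT HSC. Its part in the catalase levels was not tested.

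Sod2 on 1448610_a_at read 10.67 and 10.77 in p53+/m HSC, 10.61 and 10.87 in p53+/- HSC, and 11.27 and 11.28 in WT HSC. Both p53 genotypes lay below WT by less than 2-fold, with log2 differences of -0.55 for p53+/m (SE 0.19, adjusted p = 0.335) and -0.54 for p53+/- (SE 0.19, adjusted p = 0.472), and their own arrays overlapped (-0.02, SE 0.19). On 1417193_at the values were 9.39 and 9.56 in p53+/m HSC, 9.11 and 9.66 in p53+/- HSC, and 9.66 and 9.70 in WT HSC, with the same order of p53+/m and WT. Sod1 on 1435304_at read 6.31 and 6.99 in p53+/m HSC, 7.06 and 7.64 in p53+/- HSC, and 6.69 and 6.85 in WT HSC, and the log2 difference between p53+/m and p53+/- HSC was -0.70 (SE 0.28, adjusted p = 0.492). The brighter Sod1 probe set gave 12.51 and 12.67 in p53+/m HSC, 12.21 and 12.13 in p53+/- HSC, and 12.87 and 12.07 in WT HSC, so that p53+/m and p53+/- HSC stood in the opposite order (0.42, SE 0.23, adjusted p = 0.727).

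Gpx1 read 11.80 and 11.84 in p53+/m HSC, 12.14 and 11.90 in p53+/- HSC, and 12.76 and 11.95 in WT HSC. The order was the same as for catalase, but the differences were small, at -0.20 between p53+/m and p53+/- HSC (SE 0.27) and -0.53 between p53+/m and WT HSC (SE 0.27, adjusted p = 0.602). Gpx4 on 1456193_x_at read 8.71 and 8.67 in p53+/m HSC, 9.23 and 8.82 in p53+/- HSC, and 8.94 and 9.57 in WT HSC, with a log2 difference of -0.56 between p53+/m and WT HSC (SE 0.28, adjusted p = 0.592). On the brighter 1451695_a_at it read 9.26 and 9.07 in p53+/m HSC, 10.12 and 9.31 in p53+/- HSC, and 8.97 and 9.72 in WT HSC, with a difference of -0.18 between p53+/m and WT HSC (SE 0.41, adjusted p = 1). Between p53+/- and WT HSC the probe sets differed in sign, at -0.23 and 0.37. Prdx2 on 1418506_a_at read 11.24 and 11.08 in p53+/m HSC, 11.71 and 11.50 in p53+/- HSC, and 11.96 and 10.61 in WT HSC, where the WT arrays spanned the values of both p53 genotypes. On 1430979_a_at it read 7.99 and 8.61 in p53+/m HSC, 8.01 and 8.26 in p53+/- HSC, and 8.44 and 7.13 in WT HSC. The probe sets differed in sign, with -0.44 and 0.16 between p53+/m and p53+/- HSC and -0.12 and 0.51 between p53+/m and WT HSC, and none passed. Hmox1 lay between 3.50 and 4.27, Nqo1 between 2.57 and 2.59 and Gpx3 between 2.05 and 2.12 on these 6 arrays. The arrays did not overlap on 10 of 15 probe sets between p53+/m and p53+/- HSC (3 higher and 7 lower, beside 34.6% of all, 19.4% higher and 15.2% lower), on 6 between p53+/m and WT HSC (all lower, beside 25.3%, 11.1% higher and 14.2% lower) and on 4 between p53+/- and WT HSC (1 higher and 3 lower, beside 30%, 8.23% higher and 21.7% lower). The median log2 differences in these comparisons were -0.02, -0.12 and -0.23, beside 0.01, -0.0047 and -0.02 over all probe sets.

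No gene of the 5 related lists passed in any comparison of genotypes. Those with the smallest p between p53+/m and p53+/- HSC were Txn2, the mitochondrial thioredoxin (-0.63, adjusted p = 0.082), and Prdx3, the mitochondrial peroxiredoxin that Txn2 serves (-1.26, adjusted p = 0.123). Prdx3 averaged 7.19 in p53+/m HSC and 8.45 in p53+/- HSC, beside 8.24 in WT HSC (-1.05 between p53+/m and WT HSC, adjusted p = 0.153). Between p53+/m and WT HSC the smallest p belonged to Mafg, a small Maf partner of Nrf2 (0.91, adjusted p = 0.059), followed by the glutathione transferase genes Gstm5 (-0.53, adjusted p = 0.086) and Mgst2 (-2.70, adjusted p = 0.0929) and by Nnt, which makes NADPH in mitochondria (-1.11, adjusted p = 0.122). Between p53+/- and WT HSC it belonged to Mgst3 (-0.32, adjusted p = 0.119) and Ggct, of glutathione turnover (-1.10, adjusted p = 0.173).

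The order of the group means is given last, as a description. For Cat, Gpx1 and Prdx2, WBM stood at the top with arrays above those of every HSC group, and the HSC groups overlapped their neighbors in most steps of the order. Cat on 1416429_a_at averaged 8.46 ± 0.13 in p53+/m HSC, 9.30 ± 0.55 in p53+/- HSC, 9.71 to 9.84 in WT HSC of the 4 ages and 12.02 ± 0.24 in WBM (SD, n = 2), and every WBM array lay above all HSC arrays. Both p53+/m arrays lay below all others, while p53+/- A (9.68) reached the lowest WT HSC array. Prdx2 on 1418506_a_at averaged between 11.15 and 11.60 in the 6 HSC groups, in which every group overlapped the next, and 13.82 ± 0.06 in WBM. Gpx4 on 1456193_x_at averaged 10.12 ± 0.09 in WT HSC of 2 mo, which lay above and apart from the next group, and between 8.69 and 9.40 in all others, each overlapping the next. On 1451695_a_at WT HSC of 2 mo also had the highest mean (10.31) and WBM (9.37) the fourth, and every group overlapped the next. Sod2 on 1448610_a_at averaged 11.28 to 11.58 in WT HSC of the 4 ages, and 10.72 to 10.94 in both p53 genotypes and WBM, with a gap between these sets. Sod1 had WBM at the top on 1435304_at (8.33 ± 0.13) and at the bottom on 1451124_at (11.97), and Hmox1 had it at the top with all values below log2 5. Gpx3 and Nqo1 differed by at most 0.05 and 0.11 between any group means and were dim on every array. The HSC groups overlapped their neighbors on both, while for Nqo1 both WBM arrays lay above all 12 HSC arrays.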

How the data were processed

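Per the study's methods, the authors read the arrays with MAS 5.0 and deposited GC-RMA values on the log2 scale, 1 per probe set, after a background correction by probe GC content and normalization. Neither the GCRMA version nor the set of arrays normalized together is stated in the sources used here. The median of an array was 3.93 to 4.10, and 42.7% to 43.6% of the 22626 probe sets reached log2 5. Values were used unfiltered. Arrays give no depth, and having 2 per group limits precision. Of the probe sets, 20380 carry 1 gene symbol, 691 several and 1555 none, besides 64 controls that were left out.

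Tests were made in R 4.3.3 by limma 3.58.1 (lmFit, eBayes). P-values were adjusted by Benjamini-Hochberg over every probe set, and a call needed an adjusted p below 0.05 together with a 2-fold difference. A quadratic curve in age was fitted to the 8 WT HSC arrays and read as its value at 21 mo minus that at 2 mo. HSC and WBM were compared in a model of group means on the 10 WT arrays, and the genotypes in one on the 12 HSC arrays. The fits for age, for HSC against WBM and for p53+/m against p53+/- HSC were also run on simulated data. Where 1 probe set stands for a gene, it is the brightest one in WT HSC. All 10 enzymes are named, with up to 4 listed genes per direction that passed, or the 2 of smallest p. Outside this rule Me2, Cyba and Nfe2l2 between HSC and WBM, and Gsr and Nfe2l2 with age, were named after their values were seen. The enzymes and gene lists were chosen with earlier results of these data known. Promoter sequences are those of RefSeq (GRCm38.p6), without an entry for Hmox1.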

Additional observations from a re-analysis of the deposited data

How the results depend on the processing

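Cat (1416429_a_at), Gpx1, both probe sets of Prdx2 and Sod1 (1435304_at) stayed lower in HSC than in WBM under all 17 alternatives run on probe sets, with 5 to 7 of the 15 probe sets called when single arrays were left out. With 1 value per gene, the mean of its probe sets or its brightest one, 3 of 9 genes were called (Cat, Gpx1 and Prdx2). Of all 12393 genes, 2750 passed on the mean and 3037 on the brightest probe set. Sod1 and Gpx4 did not pass on either value. With age 0 probe sets were called, and 1 of 11, Gpx4 (1456193_x_at), when probe sets below log2 5 were left out, beside 2065 of 10417 of all. In settings that kept both arrays of each group, the count was 0 between p53+/m and p53+/- HSC. Between p53+/m and WT HSC the count was 1, Cat (1416429_a_at), with all 14 arrays, beside 184 of all probe sets. It stayed at 0 for any course with age and between p53+/- and WT HSC. Over all probe sets, leaving out single arrays gave 23 to 2218 calls with age (641 with all arrays), 0 to 904 for any course with age (121), 3190 to 5502 for HSC against WBM (4673), 19 to 184 for p53+/m against p53+/- HSC (44), 48 to 1016 for p53+/m against WT HSC (101) and 8 to 1052 for p53+/- against WT HSC (37). For p53+/m against p53+/-, p53+/m against WT and p53+/- against WT HSC, 0 probe sets were called with only the 4 arrays of the groups compared. Each single array of WT HSC moved the 641 calls with age by over 1.5 times. The causes were not tested.

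The labels do not say whether the letters pair the arrays. Of 21 pairs of groups, 2 had arrays of the same letter whose deviations correlated above 0.1 (range -0.31 to 0.16). These correlations cannot exclude a pairing in some groups. With the letter as a replicate block, 5 enzyme probe sets were called for HSC against WBM, Gpx4 (1456193_x_at) being lost, and 0 in each other comparison, while the calls over all probe sets went to 289 with age, 16 for p53+/m against p53+/-, 59 for p53+/m against WT and 17 for p53+/- against WT.

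Signs turned only for values that did not pass. With quantile normalization these were Cat (-0.0901) and Nqo1 (0.0132) with age, Sod2 (0.0553) and Gpx3 (-0.0029) for p53+/m against p53+/- and Nqo1 (0.0072) for p53+/- against WT. With arrays centred on their median they were Nqo1 (0.0281) with age, Gpx3 (-0.0479) for p53+/m against p53+/-, and Gpx3 (0.0173) and Nqo1 (0.0508) for p53+/- against WT. With the mean of a gene's probe sets they were Sod1 with age (-0.0607), for HSC against WBM (-0.438), for p53+/m against p53+/- (-0.143), for p53+/m against WT (-5e-04) and for p53+/- against WT (0.142), and Sod2 (0.115) for p53+/m against p53+/- and Prdx2 (0.197) for p53+/m against WT. Without both 12 mo arrays, and with group means in place of the trend, they were Cat (-0.0333) and Gpx3 (-0.0020) with age. Leaving out single arrays gave, with age, -0.0423 to 0.0795 for Cat, -6e-04 to 0.0116 for Gpx3 and -0.0348 to 0.0042 for Nqo1. For p53+/m against p53+/- it gave -5e-04 to 0.0193 for Gpx3, -0.0129 to 0.0092 for Nqo1 and -0.144 to 0.113 for Sod2. For p53+/m against WT it gave -0.795 to 0.556 for Prdx2, -0.278 to 0.520 for Sod1, -0.554 to 0.200 for Gpx4, -0.489 to 0.285 for Hmox1 and -0.0195 to 0.0026 for Nqo1. For p53+/- against WT it gave -0.696 to 0.102 for Sod1, -0.739 to 0.0741 for Gpx1, -0.0385 to 0.772 for Gpx4, -0.358 to 0.993 for Prdx2 and -0.654 to 0.120 for Hmox1.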
